A study of Mus musculus with 20 samples.

Results

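Glutathione transferases were followed as 10 genes (Gstz1, Gstm1, Gstm2, Gstp1, Gsta4, Gstt1, Gsto1, Gstk1, Mgst1 and Mgst3) out of 39253 in a table of ovarian antral follicle mRNA. The genes were taken by symbol; all 10 were in the table, and all 10 were among the 17810 genes that passed a filter on low counts. The 20 female CD-1 mice, 40 days old at the start and labelled 75 days old at collection, drank for 35 days either iodoacetic acid (IAA) at 10 mg/L (5 mice), IAA at 500 mg/L (5 mice) or water alone (10 controls); the labels name no genetic change in any group. IAA and its vehicle were given in 2 experiments a month apart: experiment 1 held the 500 mg/L mice with controls 6 to 10, and experiment 2 held the 10 mg/L mice with controls 1 to 5, so dose and experiment cannot be told apart when the doses are set against each other or against all controls. The comparison with the controls of the same experiment is free of that overlap. Each library came from 1 mouse in diestrus, from which 30 to 40 follicles of 220 to 400 µm were dissected and pooled.

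These enzymes join the thiol of glutathione to reactive, electron-poor compounds, which makes the products easier to export. The soluble alpha, mu, pi, theta, omega and zeta classes share a common fold, the kappa class is found in mitochondria and peroxisomes, and the microsomal enzymes Mgst1 and Mgst3 belong to a separate family of membrane proteins. IAA is a haloacetic acid that forms when water containing iodide is disinfected, and it alkylates thiols. Gstz1, the zeta-class enzyme, isomerises maleylacetoacetate in tyrosine breakdown and also metabolises alpha-haloacids such as dichloroacetate. Gsto1, the omega-class enzyme, acts as a thiol transferase and reduces dehydroascorbate and methylated arsenic.

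Each library held between 39.9 M and 67.5 M estimated counts, and the member with the fewest counts, Gstt1 in 1 mouse at 500 mg/L, still had 162. Granulosa cells, the main cell type of the follicle wall, were well represented: 10 of 10 of their markers were tested, and their summed level ran from 7394 to 17702 CPM (counts scaled to a library of 1 M) in the exposed mice and from 10347 to 15254 CPM in the controls; the 10 oocyte markers summed to 320 to 708 CPM in exposed mice and to 330 to 632 CPM in controls. Markers of luteal cells were present in every library, at 696 to 3225 CPM in exposed mice and 479.7 to 3887 CPM in controls. In such bulk samples, fewer cells of a type and less RNA per cell cannot be told apart.

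Levels of the 10 genes in the controls spanned a wide range. Per transcript length, Mgst1 and Gstm1 were highest, at 268.9 ± 84.2 and 268.9 ± 59.7 CPM per kb (SD, n = 10), followed by Gstm2 at 235 ± 42.9 and Gstp1 at 206 ± 56.9 CPM per kb. Gstm1 exceeded Gstm2 in all 10 controls on this scale, which rests on median transcript lengths of 883 and 959 bases. Annotated lengths ran from 828 to 1289 bases for Gstm1 and from 854 to 1064 bases for Gstm2. In CPM, not divided by length, Gstm1 was the lower in controls 6, 7, 8 and 10 and the higher in the other controls. The other neighbours among these genes overlapped: Mgst1 exceeded Gstm1 in 4 of 10 controls, and Gstm2 exceeded Gstp1 in 6 of 10. Annotated lengths of the 8 Mgst1 transcripts ran from 365 to 1167 bases (median 827.5), and those of Gsto1 from 384 to 1182 bases. The places of Mgst1 and Gsto1 on this scale therefore depend on the length taken. Gsta4, an alpha-class enzyme that conjugates the lipid peroxidation product 4-hydroxynonenal, stood at 125 ± 31.9 CPM per kb, below Gstp1 in 8 of 10 controls. Gsto1, at 52.7 ± 5.39 CPM per kb, was below Gsta4 and above Mgst3 in all 10 controls. Mgst3 and Gstz1 were level with each other, at 30.7 ± 4.09 and 30.4 ± 4.63 CPM per kb, and Mgst3 was the higher in 7 of 10. Gstt1, a theta-class enzyme that acts on small halogenated compounds, and the mitochondrial and peroxisomal Gstk1 were lowest, at 12.6 ± 3.22 and 11.1 ± 2.26 CPM per kb, and Gstt1 exceeded Gstk1 in 7 of 10. Among all tested genes, the mean CPM of the 10 members over all 20 mice lay between the 41.5th percentile for Gstk1 and the 95.6th for Gstm1.

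**Figure D1:**
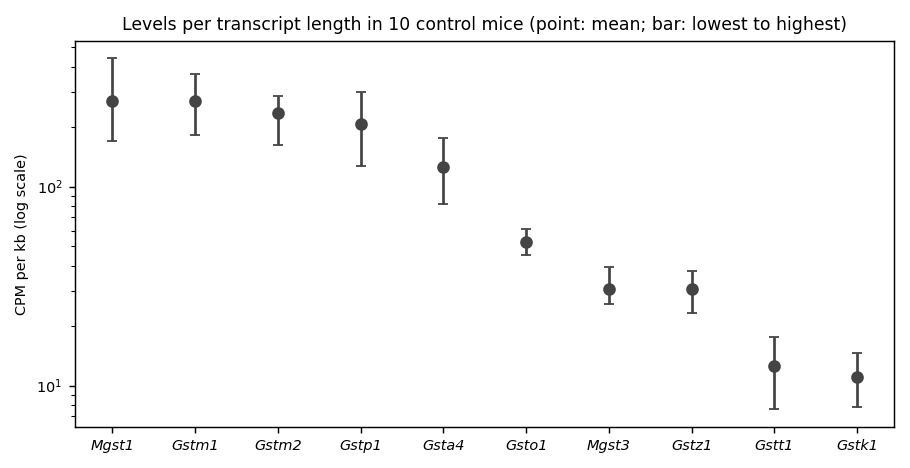
Level of each glutathione transferase mRNA per kb of its median protein-coding transcript, in the 10 control mice, on a log scale; points are means and bars run from the lowest to the highest mouse. Mgst1 and Gstm1 lead at 268.9 CPM per kb, and Gstt1 and Gstk1 are lowest at 12.6 and 11.1 CPM per kb.

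No change of a glutathione transferase mRNA passed the test at either dose. Against the controls of the same experiment, 0 of 10 members passed an adjusted p of 0.05 at 10 mg/L, where 0 of 17810 genes passed (0%), and 0 of 10 passed at 500 mg/L, where again 0 of 17810 genes passed (0%), in edgeR's quasi-likelihood test with Benjamini-Hochberg adjustment. At an unadjusted p under 0.05 the counts were 1148 genes at 10 mg/L (6.45%) and 924 at 500 mg/L (5.19%), with 0 of 10 members among them in either comparison. DESeq2 called 31 and 7 genes, limma-voom 0 and 0, and no member was among them. Median change of the members on the log2 scale was 0.020 at 10 mg/L, against 0.00022 over all genes, and -0.037 at 500 mg/L, against 0.0018 over all genes. In CPM, the 5 exposed mice and the 5 controls of the same experiment overlapped for all 10 members at each dose, while 1.04% of all genes did not overlap at 10 mg/L and 0.932% did not at 500 mg/L.

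**Figure D2:**
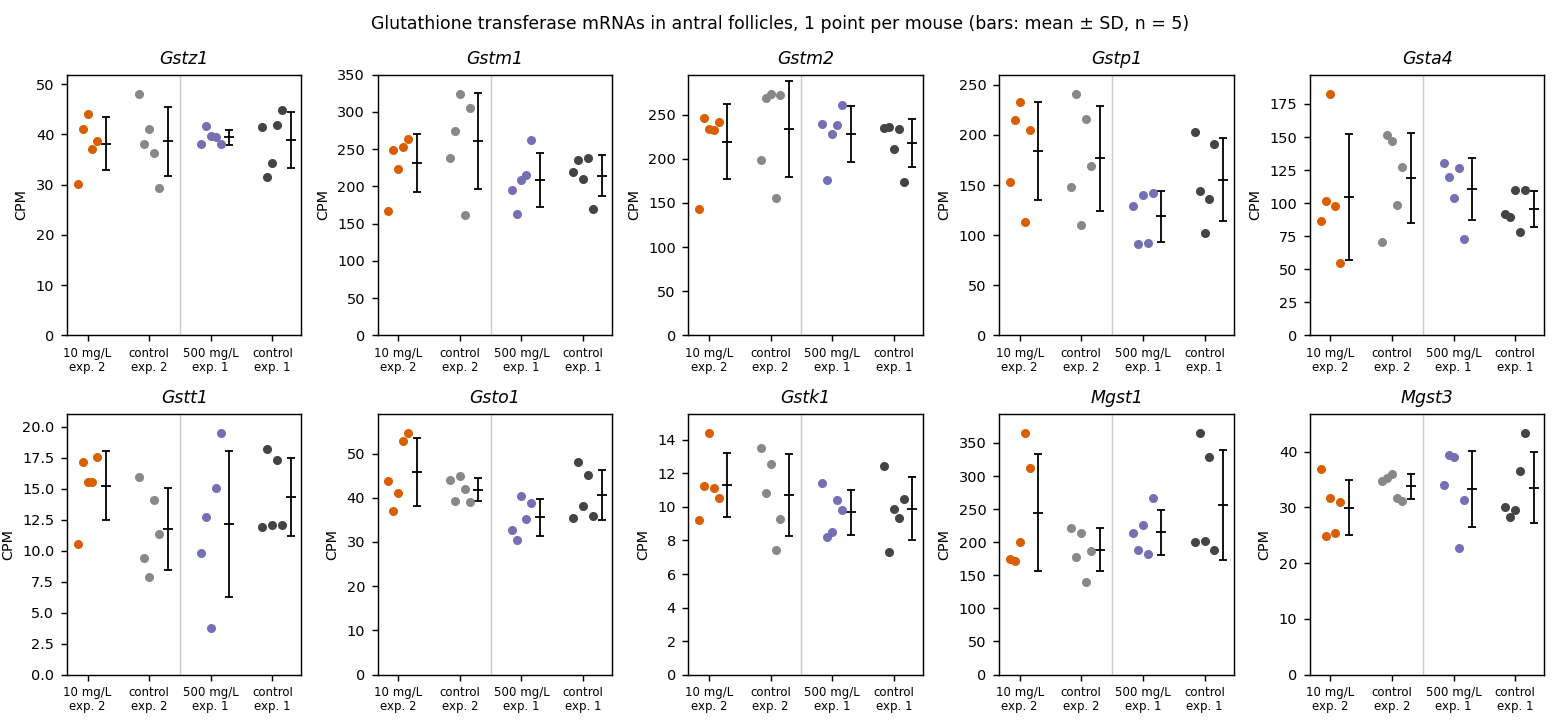
CPM of each member in each of the 20 mice, with exposed mice to the left of the controls of the same experiment; points are mice, and bars are the mean ± SD of 5. Exposed and control mice overlap in every panel, and the 500 mg/L mouse at 3.75 CPM of Gstt1 and the 4 mice above 300 CPM of Mgst1 stand out.

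Gstz1 (Entrez 14874, chromosome 12), the member with haloacids among its substrates, had similar means in every group. At 10 mg/L the 5 mice had 30.1, 41.0, 44.0, 37.0 and 38.6 CPM, against 48.1, 38.0, 41.1, 36.3 and 29.4 CPM in their controls. Mice at 500 mg/L had 38.1, 41.7, 39.6, 39.4 and 38.1 CPM, against 41.5, 31.5, 34.4, 41.8 and 44.9 CPM in their controls. The exposed values lay inside the range of the controls in each experiment. The log2 change was -0.016 at 10 mg/L (SE 0.12, 95% interval -0.25 to 0.22, adjusted p = 0.988) and 0.022 at 500 mg/L (SE 0.12, interval -0.21 to 0.26, adjusted p = 0.992). With both doses averaged within experiments, it was 0.0028 (interval -0.16 to 0.17), so a change of either sign larger than 0.17 on the log2 scale lay outside the interval. The 500 mg/L mice were tightly grouped, with a coefficient of variation of 3.75%, against 14.5% in the controls of that experiment. Other genes of tyrosine breakdown were scarce in this tissue: Tat, Hpd and Hgd, which act before Gstz1, reached at most 11.3 estimated counts in any library and were not tested, whereas Fah, the hydrolase that acts after it, was tested and had log2 changes of 0.17 (SE 0.14, adjusted p = 0.859) at 10 mg/L and -0.14 (SE 0.14, adjusted p = 0.965) at 500 mg/L.

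Gsto1 (Entrez 14873, chromosome 19) had the smallest p of the 10 members in the comparison between doses. At 10 mg/L the mice had 43.8, 36.9, 41.0, 52.8 and 54.6 CPM, against 44.0, 39.3, 44.9, 42.1 and 39.1 CPM in their controls. High-dose mice had 32.8, 30.4, 40.5, 35.2 and 38.9 CPM, against 35.5, 48.1, 38.2, 45.1 and 36.0 CPM in their controls. Of the high-dose values 3 sat below every control of that experiment, and 2 of the low-dose values sat above every control of theirs. The log2 change was 0.13 (SE 0.11, adjusted p = 0.869) at 10 mg/L and -0.19 (SE 0.11, adjusted p = 0.961) at 500 mg/L, and leaving out 1 mouse gave 0.059 to 0.20 and -0.24 to -0.12. The difference between these effects, -0.32 (SE 0.16, unadjusted p = 0.056, adjusted p = 0.914), missed the threshold. In the 500 mg/L mice against all controls, means were 35.5 ± 4.17 CPM (SD, n = 5) and 41.2 ± 4.22 CPM (SD, n = 10), a log2 change of -0.21 with an adjusted p of 0.542. In the 500 mg/L mice directly against the 10 mg/L mice, means were 35.5 ± 4.17 and 45.8 ± 7.64 CPM (SD, n = 5 each), a log2 change of -0.37 (SE 0.11, unadjusted p = 0.0032, adjusted p = 0.264).

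The authors' deposited table calls Gsto1 where the count model does not. It lists a signed fold change of -1.26 for 500 mg/L over 10 mg/L with an adjusted p of 0.0396, in a comparison where 1.59% of its 18169 genes have an adjusted p under 0.05. The authors' deposited table gives Gsto1 an adjusted p of 0.0456 over the 3 groups, with 2.19% of genes under 0.05, and a fold change of -1.16 with an adjusted p of 0.0992 for 500 mg/L over controls, with 1.26% of genes under 0.05. Gsto1 is the only member with an adjusted p under 0.05 anywhere in that table, 0 members have one in its 10 mg/L against control comparison, where 0.611% of genes do, and the fold changes of all 10 members have the same sign in the authors' deposited table as in the count model for each dose against all controls. The closest the alternatives tried here came was DESeq2, with an adjusted p of 0.0914 for Gsto1 between the doses.

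Gstp1 (Entrez 14870, chromosome 19), the pi-class enzyme, had lower values in the 500 mg/L mice without passing the test. These mice had 129, 91.1, 140, 91.8 and 142 CPM, against 203, 144, 103, 136 and 191 CPM in their controls. No mouse at 500 mg/L exceeded 142 CPM. At 10 mg/L the values were 153, 215, 233, 114 and 205 CPM, against 148, 241, 110, 216 and 169 CPM in their controls, with the ranges nearly the same. The log2 change was 0.057 (SE 0.23, adjusted p = 0.983) at 10 mg/L and -0.39 (SE 0.23, adjusted p = 0.961) at 500 mg/L against own controls. Against all controls at 500 mg/L it was -0.48 (SE 0.20, interval -0.88 to -0.085, unadjusted p = 0.028, adjusted p = 0.520), with means of 119 ± 25.4 CPM (SD, n = 5) and 166 ± 45.9 CPM (SD, n = 10). Between the doses it was -0.63 (SE 0.23, adjusted p = 0.362). Of the 101-base windows in the annotated Gstp1 transcripts, 38.2% also occur in Gstp2, its close paralogue, so part of the Gstp1 estimate depends on how reads were shared between these genes.

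Gstp1 and Gsto1 were the 2 of 10 members at an unadjusted p under 0.05 in the 500 mg/L against all controls comparison, where 8.69% of all genes were, and again in the comparison of doses, where 10% of all genes were. At an adjusted p of 0.05, 0.0112% of genes passed in each of these comparisons (2 of 17810) and 0 of 10 members. At 10 mg/L against all controls, 0.00561% of genes passed (1 of 17810), with 0 of 10 members, and 0 of 10 members against 6.22% of genes were at an unadjusted p under 0.05. Changes of the 10 members ran from -0.17 to 0.23 at 10 mg/L and from -0.48 to 0.045 at 500 mg/L against all controls. Their median absolute change was 0.13 at 10 mg/L, against 0.096 over all genes, and 0.071 at 500 mg/L, against 0.11 over all genes.

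**Figure D3:**
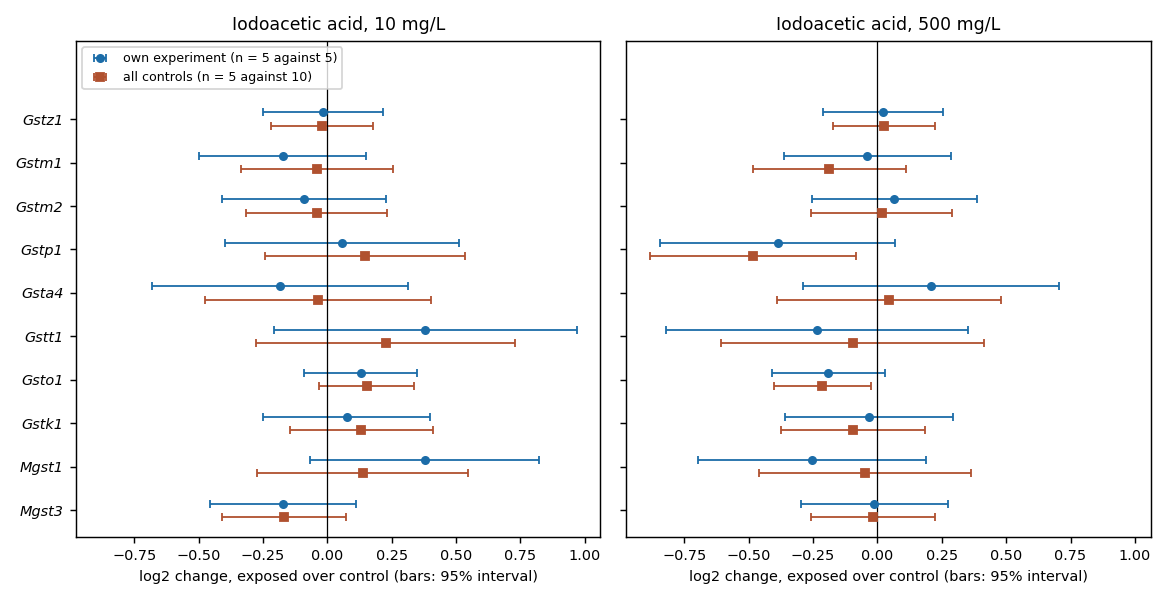
Log2 change of each member with its 95% interval, at 10 mg/L on the left and 500 mg/L on the right; circles are against the 5 controls of the same experiment, squares against all 10 controls. Against own controls all intervals include 0, and against all controls those of Gstp1 (-0.48) and Gsto1 (-0.21) at 500 mg/L do not.

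Gstm1 (Entrez 14862) and Gstm2 (Entrez 14863), mu-class enzymes encoded close to each other on chromosome 3, are similar enough to raise the question of shared reads. Over 657 coding bases they are 86.0% identical, and the longest identical stretch is 60 bases, shorter than a 101-base read. The first 101 coding bases of each, from GENCODE transcripts of mouse build GRCm38, are shown with the 16 differing bases in capitals, because they show what tells reads of these genes apart.
Gstm1: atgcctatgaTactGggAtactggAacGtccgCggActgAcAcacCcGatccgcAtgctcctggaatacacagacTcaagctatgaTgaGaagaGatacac
Gstm2: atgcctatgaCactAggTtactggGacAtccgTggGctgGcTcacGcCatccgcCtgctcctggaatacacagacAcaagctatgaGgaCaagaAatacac
No 101-base window of a Gstm1 transcript occurs in Gstm2; 5.89% of Gstm1 windows occur in other annotated genes, most often in the gene model Gm8834 (2.55%), and 0.457% of Gstm2 windows occur in Gm12499.

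Levels of both mu-class genes overlapped widely between exposed mice and controls. Gstm1 had 167, 249, 223, 252 and 264 CPM at 10 mg/L, against 238, 274, 324, 161 and 305 CPM in the controls of that experiment. High-dose mice had 195, 163, 209, 215 and 262 CPM, against 219, 235, 210, 238 and 170 CPM in the controls. The log2 change was -0.17 (SE 0.17, adjusted p = 0.890) at 10 mg/L and -0.040 (SE 0.17, adjusted p = 0.988) at 500 mg/L; leaving out 1 mouse moved the 10 mg/L value to between -0.30 and -0.072. Gstm2 averaged 219 ± 42.8 CPM at 10 mg/L and 234 ± 54.2 CPM in its controls, and 228 ± 31.8 CPM at 500 mg/L and 218 ± 26.8 CPM in its controls (SD, n = 5 each). Its log2 changes were -0.090 (SE 0.16, adjusted p = 0.950) and 0.066 (SE 0.16, adjusted p = 0.978).

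Gsta4 (Entrez 14860, chromosome 9) and Gstt1 (Entrez 14871, chromosome 10) varied most between mice of a group. Gsta4 had 86.4, 102, 183, 97.7 and 54.7 CPM at 10 mg/L, against 70.2, 151, 147, 98.7 and 127 CPM in the controls, and 130, 120, 104, 127 and 73.2 CPM at 500 mg/L, against 91.7, 89.6, 110, 78.4 and 110 CPM in the controls. Its log2 changes had opposite signs, -0.18 (SE 0.25) at 10 mg/L and 0.21 (SE 0.25) at 500 mg/L, with adjusted p-values of 0.930 and 0.965. Leaving out 1 mouse moved the 10 mg/L value of Gsta4 to between -0.47 (without mouse 3 at 10 mg/L) and -0.022 (without mouse 5), and the 500 mg/L value to between 0.14 (without mouse 1 at 500 mg/L) and 0.32 (without mouse 5). Gstt1 had 10.5, 17.1, 15.6, 15.5 and 17.5 CPM at 10 mg/L, against 15.9, 9.38, 7.89, 14.1 and 11.3 CPM in the controls. The high dose gave 9.82, 12.7, 3.75, 15.1 and 19.5 CPM, against 11.9, 18.2, 12.1, 17.4 and 12.1 CPM in the controls, so the lowest and the highest of all 20 mice were both in the high-dose group. The log2 change of Gstt1 was 0.38 (SE 0.30, adjusted p = 0.853) at 10 mg/L and -0.23 (SE 0.30, adjusted p = 0.967) at 500 mg/L. Without mouse 3 at 500 mg/L, the one at 3.75 CPM, the high-dose change of Gstt1 was -0.0059, and without mouse 5 it was -0.47; at 10 mg/L leaving out 1 mouse gave 0.27 to 0.52. Within groups, the SD of log2 CPM was 0.54 for Gstt1 and 0.44 for Gsta4, against 0.20 for Gstz1 and 0.18 for Gsto1. Among genes of similar level, the SD of Gsta4 stood at the 95.9th percentile, that of Gstp1 (0.40) at the 93.6th and that of Mgst1 (0.38) at the 92.6th. Gstt1 stood below these at the 90.7th, and Gstk1 (0.27) and Gsto1 at the 64.1st and 65.2nd. The median SD was 0.22 among genes at the level of Gstt1, against 0.13 at that of Gsta4.

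Gstk1 (Entrez 76263, chromosome 6), the kappa-class enzyme, had means of 11.3 ± 1.91 CPM at 10 mg/L and 10.7 ± 2.45 CPM in its controls, and of 9.67 ± 1.34 CPM at 500 mg/L and 9.90 ± 1.86 CPM in its controls (SD, n = 5 each). The log2 changes, 0.075 (SE 0.17) and -0.034 (SE 0.17), were smaller than their errors.

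Of the microsomal genes, Mgst1 had a broader spread between mice than Mgst3 (SD of log2 CPM 0.38 and 0.24). Mgst1 (Entrez 56615, chromosome 6), which conjugates and detoxifies lipid peroxides at the endoplasmic reticulum and outer mitochondrial membrane, had 174, 172, 200, 365 and 313 CPM at 10 mg/L, against 222, 178, 215, 140 and 187 CPM in the controls of that experiment. At 500 mg/L it had 214, 188, 225, 182 and 267 CPM, against 201, 365, 202, 328 and 188 CPM in the controls. Values above 300 CPM thus occurred in 2 of 5 mice at 10 mg/L and 2 of 5 controls of experiment 1, and in none of the other 10 mice. The log2 change was 0.38 (SE 0.23, unadjusted p = 0.11, adjusted p = 0.805) at 10 mg/L and -0.25 (SE 0.23, adjusted p = 0.965) at 500 mg/L. Without mouse 4 at 10 mg/L the low-dose change was 0.19, and without control 7 the high-dose change was -0.094; over all 20 mice left out in turn, the ranges were 0.19 to 0.49 and -0.35 to -0.094. The difference between these effects was -0.63 (SE 0.32, unadjusted p = 0.063, adjusted p = 0.914). For that difference 0 of 17810 genes passed (0%) and 0 of 10 members, with 964 genes (5.41%) and 0 of 10 members at an unadjusted p under 0.05; DESeq2 called 12 genes and limma-voom 0, and no member was among them. Mgst3 (Entrez 66447, chromosome 1), which has glutathione peroxidase activity, averaged 29.9 ± 4.98 CPM at 10 mg/L and 33.8 ± 2.20 CPM in its controls, and 33.2 ± 6.83 CPM at 500 mg/L and 33.5 ± 6.36 CPM in its controls (SD, n = 5 each). Its log2 changes were -0.17 (SE 0.15, adjusted p = 0.863) and -0.012 (SE 0.15, adjusted p = 0.997), and leaving out 1 mouse moved the first to between -0.25 and -0.11.

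Among the 10 members, the median absolute log2 difference between the control sets was 0.15, against 0.15 between exposed and own control mice at 10 mg/L and 0.13 at 500 mg/L. Over all genes these medians were 0.12, 0.11 and 0.11, each below that of the members. Between the controls of experiment 1 and those of experiment 2, 0.157% of genes passed (28 of 17810) and 0 of 10 members; at an unadjusted p under 0.05 it was 9.78% of genes and 0 of 10 members. Mgst1 averaged 257 ± 83.3 CPM in experiment 1 and 188 ± 32.5 CPM in experiment 2 (SD, n = 5 each), a log2 difference of 0.45 (SE 0.23, adjusted p = 0.545). Gsta4 differed by -0.31 (SE 0.25, adjusted p = 0.748) and Gstm1 by -0.28 (SE 0.17, adjusted p = 0.614), while Gstz1 differed by 0.0091 (SE 0.12). Averaged over doses within experiments, 0.0112% of genes passed (2 of 17810) and 0 of 10 members; 6.77% of genes and 0 of 10 members were at an unadjusted p under 0.05. Changes of the members ran from -0.17 for Gstp1 to 0.073 for Gstt1.

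No gene in 5 lists of the wider glutathione system passed at either dose against own controls, where 0 of 17810 genes passed. Counts of 0 thus hold for any list. At an unadjusted p under 0.05 were 6.45% of all genes at 10 mg/L and 5.19% at 500 mg/L. Of the relatives, 2 of 18 were at each dose, higher at 10 mg/L and lower at 500 mg/L. Of synthesis and recycling genes, 2 and 1 of 20 were. Of peroxidases and glutaredoxins 0 and 1 of 11 were, of export genes 0 and 1 of 11, and of NRF2 genes 0 at each dose. Of 18 tested relatives of the 20 present in the table, 0 passed. Those with the smallest p at 10 mg/L were Hpgds, the sigma-class prostaglandin D synthase (log2 change 1.44, SE 0.44, adjusted p = 0.610), Gsto2 (0.48, SE 0.21, adjusted p = 0.760) and Mgst2 (0.62, SE 0.39, adjusted p = 0.815). At 500 mg/L they were Mgst2 (-1.13, SE 0.39, adjusted p = 0.954), Gsta1 (-1.68, SE 0.76, adjusted p = 0.954) and Gstp3 (-0.72, SE 0.53, adjusted p = 0.963). Of 20 genes of glutathione synthesis and recycling, 0 passed at either dose; the smallest p at 10 mg/L was that of Oplah, which returns 5-oxoproline to glutamate (0.83, SE 0.34, adjusted p = 0.751), and at 500 mg/L that of Ggct, which releases 5-oxoproline (0.29, SE 0.12, adjusted p = 0.954). Of 11 tested glutathione peroxidases and glutaredoxins, 0 passed; Gpx1, the main cytosolic peroxidase, had 0.37 (SE 0.28, adjusted p = 0.844) at 10 mg/L and -0.66 (SE 0.28, adjusted p = 0.954) at 500 mg/L. Of 11 genes of conjugate export, 0 passed, and the exporter Abcc1 had 0.15 (SE 0.069, adjusted p = 0.954) at 500 mg/L. Of 21 regulators and targets of NRF2, the transcription factor that raises many detoxifying enzymes, 0 passed; 9 of 21 were higher at 10 mg/L (median log2 change -0.047) and 7 of 21 at 500 mg/L (median -0.061), and Nqo1, a classic target, had -0.35 (SE 0.21, adjusted p = 0.808) and -0.43 (SE 0.21, adjusted p = 0.960).

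Across the 20 mice, with group and experiment means removed, some members varied together. Of 45 pairs, 3 passed an adjusted p of 0.05 in a permutation test within groups. Gstm1 and Gstm2 were closest, with Pearson r = 0.94 and Spearman rho = 0.87 (adjusted permutation p = 0.00045 and 0.0009; r = 0.93 in experiment 1 and 0.95 in experiment 2; 0.90 without the 2 mice farthest from the median). In all 4 groups r was between 0.90 and 0.97, and mouse 1 at 10 mg/L (167 and 143 CPM) and control 4 (161 and 155 CPM) were among the 3 lowest of the 20 for each gene. Mgst1 and Gsto1, which lie on separate chromosomes, followed with r = 0.84 and rho = 0.76 (adjusted permutation p = 0.0112 and 0.0486; r = 0.86 and 0.82 by experiment; 0.78 without 2 mice). By group, their r was 0.91 at 10 mg/L, 0.66 at 500 mg/L, 0.98 in controls of experiment 1 and 0.42 in controls of experiment 2. Gstm1 and Mgst1 had r = 0.61 and rho = 0.62 (adjusted permutation p = 0.0301 and 0.0679; r = 0.68 and 0.58 by experiment; 0.51 without 2 mice), and 9 of 20 repeats that left out a mouse put this pair above 0.05.

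The start regions of these 4 genes are shown because their mRNAs varied together: 250 bases before the annotated start of transcription, from RefSeq on build GRCm38.p6, with capitals for the core of the antioxidant response element.
Gstm1, chr3:108017974-108018223 (minus strand): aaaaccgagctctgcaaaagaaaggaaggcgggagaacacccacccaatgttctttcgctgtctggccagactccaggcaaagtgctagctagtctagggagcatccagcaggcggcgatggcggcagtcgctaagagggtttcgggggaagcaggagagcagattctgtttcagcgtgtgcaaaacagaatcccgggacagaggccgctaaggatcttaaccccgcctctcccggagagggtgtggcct
Gstm2, chr3:107986421-107986670 (minus strand): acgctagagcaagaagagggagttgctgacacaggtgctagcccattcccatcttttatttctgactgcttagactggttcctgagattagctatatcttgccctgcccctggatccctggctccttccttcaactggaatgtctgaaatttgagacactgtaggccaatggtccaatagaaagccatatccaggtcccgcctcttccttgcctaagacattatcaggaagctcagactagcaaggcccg
Mgst1, chr6:138140277-138140526 (plus strand): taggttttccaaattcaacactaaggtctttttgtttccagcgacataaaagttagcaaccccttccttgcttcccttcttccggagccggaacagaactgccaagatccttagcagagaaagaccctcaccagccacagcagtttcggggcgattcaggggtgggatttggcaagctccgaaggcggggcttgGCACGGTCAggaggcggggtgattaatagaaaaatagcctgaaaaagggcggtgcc
Gsto1, chr19:47854723-47854972 (plus strand): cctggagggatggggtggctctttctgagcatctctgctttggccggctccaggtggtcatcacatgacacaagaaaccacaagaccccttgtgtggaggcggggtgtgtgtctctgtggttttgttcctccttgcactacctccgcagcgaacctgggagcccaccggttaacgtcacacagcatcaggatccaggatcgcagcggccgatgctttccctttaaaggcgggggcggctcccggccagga
The first listed start of each gene is given. The core was searched only as TGACNNNGC, and in no other form, on both strands of windows that run to 50 bases past the start. It occurs in 1 of the 12 windows of the 9 members with an entry, that of Mgst1 at base 195, against 12.4% of 32851 windows of the same length. The longest run of bases shared by the windows of Gstm1 and Gstm2 is 9, and that shared by Mgst1 and Gsto1 is 12.

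Several members also varied with lists of cell type markers. Of 100 relations between the 10 members and 10 marker lists, 7 passed an adjusted p of 0.05 in the same test. Mgst1 varied with leukocyte markers (r = 0.80, adjusted permutation p = 0.0227; r = 0.83 and 0.79 by experiment) and with luteal markers (r = 0.78, adjusted permutation p = 0.0298; r = 0.77 and 0.78), and Gsto1 varied with luteal markers as well (r = 0.73, adjusted permutation p = 0.0298; r = 0.76 and 0.71). The 4 mice above 300 CPM of Mgst1 had summed luteal levels of 3225 and 2352 CPM at 10 mg/L and 3887 and 1612 CPM in controls of experiment 1, the 4 highest of the 20. Gstm2 varied with theca and steroidogenic markers (r = 0.76, adjusted permutation p = 0.0227; r = 0.70 and 0.79). Gstm1 varied with smooth muscle and pericyte markers (r = 0.63, adjusted permutation p = 0.0310; r = 0.74 and 0.63) and with stroma (r = 0.59, adjusted permutation p = 0.0298; r = 0.72 and 0.59). Gstt1 varied with erythroid markers (r = 0.72, adjusted permutation p = 0.0227; r = 0.75 and 0.81). Without the 2 mice farthest from the median of the member, r stayed between 0.64 and 0.72 for these 7. By Spearman's rho, Mgst1 with leukocyte markers missed the threshold (rho = 0.71, adjusted permutation p = 0.0632). Gstm2 with theca markers (0.68, adjusted permutation p = 0.0646) and Gstt1 with erythroid markers (0.58, adjusted permutation p = 0.0666) missed it too. Some relations that missed the threshold by r were as strong. Gstm1 had a larger r with theca and steroidogenic markers (0.65, adjusted permutation p = 0.0609) than with smooth muscle or stroma. With granulosa markers, r was 0.71 for Gsta4 (adjusted permutation p = 0.0596) and -0.68 for Mgst1 (adjusted permutation p = 0.0505).

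By group, the relations that passed were uneven. For Mgst1 and luteal markers r was 0.93 at 10 mg/L, 0.054 at 500 mg/L, 0.92 in controls of experiment 1 and 0.48 in controls of experiment 2. For Gsto1 and luteal markers it was 0.89, 0.30, 0.98 and 0.30 in the same order, so both values were lower in the high-dose mice and in the controls of experiment 2. For Mgst1 and leukocyte markers it was 0.79, 0.56, 0.97 and 0.79, and for Gstt1 and erythroid markers 0.89, 0.93, 0.18 and 0.83. In the 4 groups r ran from 0.65 to 0.89 for Gstm2 and theca markers, from 0.51 to 0.90 for Gstm1 and smooth muscle markers and from 0.67 to 0.97 for Gstm1 and stroma. Each group holds 5 mice, and differences in r between groups were not tested.

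How many of the 7 passed depended on single mice. Without mouse 4 at 10 mg/L, control 3 or control 10, 0 of 100 relations passed, and without control 8, control 6 or control 7, 2, 4 and 4 did. Without mouse 3 at 10 mg/L 19 passed, and without mouse 3 at 500 mg/L or control 9, 11 each. Over these repeats r moved less than the calls, from 0.72 to 0.84 for Mgst1 and luteal markers, from 0.67 to 0.80 for Gsto1 and luteal markers and from 0.76 to 0.87 for Mgst1 and leukocyte markers.

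Between exposed mice and own controls, the luteal and leukocyte lists had changes of the same sign as Mgst1 and Gsto1. By median, the theca list had the sign of Gstm2 at both doses. Opposite in sign to the member they varied with were the erythroid list at 500 mg/L and the stroma and smooth muscle lists at 10 mg/L. The luteal sum was 808 to 3225 CPM at 10 mg/L and 479.7 to 1542 CPM in the controls of that experiment, with 6 of 8 markers higher and a median log2 change of 1.06. The high-dose sum was 696 to 1388 CPM, against 654 to 3887 CPM in the controls, with 1 of 8 markers higher and a median of -0.25. For leukocyte markers, 8 of 9 were higher at 10 mg/L (sum 65.8 to 185 CPM, against 91.1 to 137 CPM in the controls) and 0 of 9 at 500 mg/L (71.5 to 167 CPM, against 107 to 283 CPM in the controls). The leukocyte medians were 0.30 and -0.46. The 2 control sets differed by a like amount. In controls of experiment 1 against those of experiment 2, 9 of 9 leukocyte markers were higher (median 0.65) and 7 of 8 luteal markers (median 0.61). Of erythroid markers, 0 of 5 were higher there (median -0.38). Erythroid markers, which varied with Gstt1, were 5 of 5 higher at both doses, with a median log2 change of 0.40 at 10 mg/L, where Gstt1 had 0.38, and of 1.11 at 500 mg/L, where Gstt1 had -0.23. Their sum was 25.5 to 113 CPM at 10 mg/L, against 17.0 to 75.7 CPM in the controls, and 31.0 to 133 CPM at 500 mg/L, against 17.1 to 63.1 CPM in the controls. Of the stroma markers, which varied with Gstm1, 6 of 7 were higher at 10 mg/L (median 0.17), where Gstm1 had -0.17, and 1 of 7 at 500 mg/L (median -0.050). Smooth muscle and pericyte markers, which also varied with Gstm1, were 7 of 9 higher at 10 mg/L (median 0.049) and 1 of 9 at 500 mg/L (median -0.083). Theca and steroidogenic markers were 4 of 8 higher at 10 mg/L (median -0.017), where Gstm2 had -0.090. At 500 mg/L 5 of 8 were higher (median 0.055), where Gstm2 had 0.066. Endothelial markers were 11 of 11 higher at 10 mg/L (median 0.33; sum 398 to 589.6 CPM, against 325 to 450.4 CPM in the controls), with 8 of 11 at an unadjusted p under 0.05, where 6.45% of all genes were. At 500 mg/L 8 of 11 endothelial markers were higher (median 0.046), with 0 at an unadjusted p under 0.05. No marker in any of the 10 lists passed the adjusted threshold at either dose, and the part of these markers in the values of the members was not tested.

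**Figure D4:**
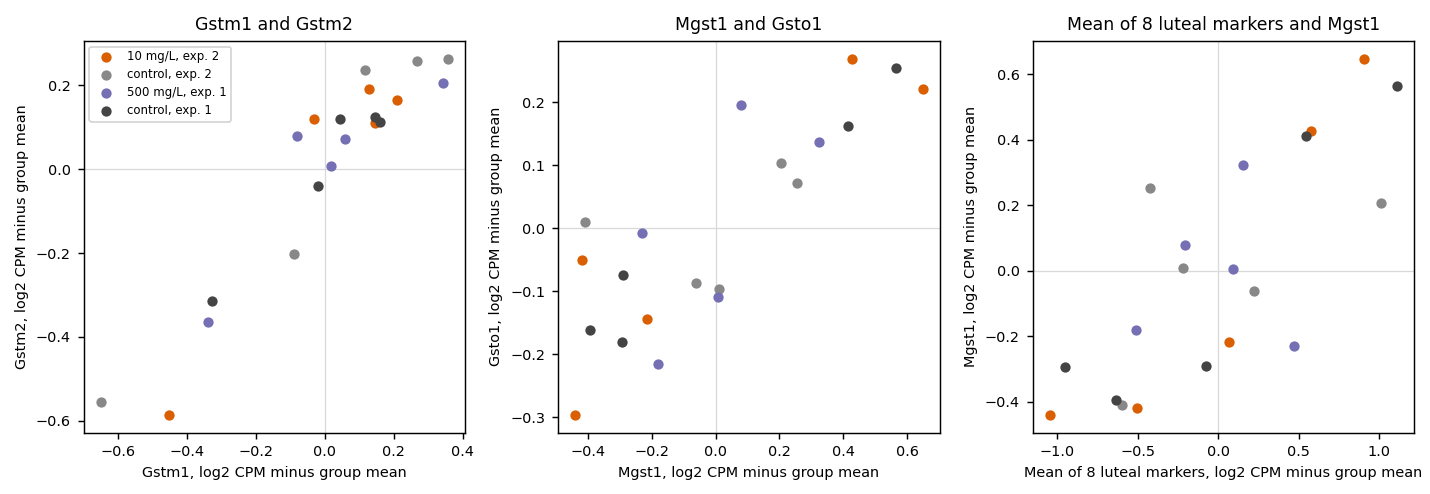
Deviations of log2 CPM from the mean of each group in its experiment, 1 point per mouse (n = 20), for Gstm1 and Gstm2, for Mgst1 and Gsto1, and for the mean of 8 luteal markers and Mgst1. The points rise together in each panel, with r = 0.94, 0.84 and 0.78.

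Outside the family, the genes most like each member over the 20 mice, by r of the same deviations among 13176 genes with a mean of at least 2 CPM, are given as a description. For Gstz1 they were Rab33a (r = 0.81), Brd8 (0.77), Neurl2 (0.76), Dis3l2 (0.73) and Prkcsh (0.73). Gstm1 and Gstm2 shared their closest genes, Acsf2 (0.95 and 0.91) and the sulfotransferase Sult1a1 (0.93 and 0.90). Mgst1 was closest to Il10rb (0.98), a chain of the interleukin-10 receptor, and Anxa1 (0.93). Gsto1 was closest to Maoa (0.89), a monoamine oxidase, and Tmem178 (0.88), and Gsta4 to Mapre2 (0.91) and Smim10l2a (0.87). Mgst3 was closest to Mtarc2 (0.89) and the gene model Gm42109 (0.88), Gstt1 to Tet2 (0.85) and Cotl1 (0.82), Gstk1 to Gm3002 (0.81) and Zbtb8b (0.81), and Gstp1 to Cacul1 (0.75) and Cdc25b (0.74).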

How the data were processed

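Stranded poly(A) libraries were sequenced for 101 cycles from 1 end, per the labels' protocols. Build GRCm39, R 4.1.2, Salmon 1.2.0, limma, edgeR and FastQC 0.11.8 are named in the submitters' processing notes; not given in the sources used here are the annotation and how transcripts became genes. The authors deposited estimated counts per gene, not normalised, which near-identical genes share by estimation. Their results table holds, per the file headers, average log2 expression, raw and adjusted p-values, an F statistic (a score) and signed fold changes; it served only for the values credited to it.

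Counts were rounded and analysed in R 4.3.3 with edgeR 4.0.16: expression filter, TMM scaling, robust quasi-likelihood fits over all 20 mice (1 mean per group for comparisons with all controls and between doses; 1 mean per group and experiment for the others), two-sided tests and Benjamini-Hochberg adjustment over 17810 genes at 0.05. SE comes from the F statistic and 95% intervals use the normal quantile, which makes them somewhat narrower than the tests imply. Between control sets, for example, the Mgst1 interval (0.0027 to 0.89) leaves out 0 at an unadjusted quasi-likelihood p of 0.064. DESeq2 1.42.0 and limma 3.58.1 (voom) were alternatives. SDs are over mice on TMM-scaled CPM. Each mouse is a separate animal; experiments were read from the table's headers. The biological coefficient of variation, a measure of mouse-to-mouse spread common to all tested genes, was 25.0% with 1 mean per group. What limited precision was not tested. No pair of libraries within a group was identical (chi-square per gene 22.5 to 156 over 65 pairs). Correlations used log2 CPM (prior count 2) centred by group and experiment, with 100000 permutations within those groups and adjustment over 45 or 100 relations; the smallest p they can give is 1e-05. Levels per length used the median protein-coding transcript of GENCODE M21. Shared 101-base windows, coding sequences and promoters came from build GRCm38, which is not the build of the counts. Scripts were tested on simulated data. All 10 members were named; pathway genes named are among the 3 with the smallest p of a list; genes most alike are the top 5 for Gstz1 and top 2 for others. One listed gene is not reported here. The members and lists were chosen with earlier results of these data known.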

Additional observations from a re-analysis of the deposited data

Results flagged for a closer look

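In 50 groups of values (10 members in 5 sets of mice), 2 held a mouse set apart from the others of its group, and chance alone flags about 1 in 20 such groups. Both were the same animal, mouse 1 at 10 mg/L. Its Gstm2 level, 143.4 CPM, lay below those of the other 4 exposed mice, which had 232 to 246 CPM. Its Gstt1 level, 10.5 CPM, lay below 15.5 to 17.5 CPM in the other 4.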

How the results depend on the processing

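No member passed an adjusted p of 0.05 in any of the 8 comparisons under any alternative tried (other scalings, filters, unrounded counts, DESeq2, limma-voom, only the groups compared, a replicate block, or leaving out 1 mouse); the smallest adjusted p was 0.0914. Of 2260 recomputed log2 changes, 109 changed sign, 102 of them on leaving out a mouse, and the largest of the values concerned was 0.14 in size. The ranges that follow are of log2 changes on leaving out each mouse in turn. At 10 mg/L against own controls, the range was -0.022 to 0.18 for Gstk1, -0.20 to 0.034 for Gstm2, -0.066 to 0.20 for Gstp1 and -0.10 to 0.079 for Gstz1. At 500 mg/L against own controls, the range was -0.13 to 0.058 for Gstk1, -0.14 to 0.035 for Gstm1, -0.0088 to 0.14 for Gstm2, -0.044 to 0.075 for Gstz1 and -0.084 to 0.092 for Mgst3. At 10 mg/L against all controls, the range was -0.33 to 0.13 for Gsta4, -0.092 to 0.060 for Gstm1, -0.084 to 0.081 for Gstm2, -0.070 to 0.056 for Gstz1 and -0.050 to 0.24 for Mgst1. At 500 mg/L against all controls, the range was -0.026 to 0.16 for Gsta4, -0.040 to 0.095 for Gstm2, -0.33 to 0.13 for Gstt1, -0.011 to 0.061 for Gstz1, -0.14 to 0.058 for Mgst1 and -0.088 to 0.088 for Mgst3. For 500 mg/L against 10 mg/L, the range was -0.081 to 0.37 for Gsta4, -0.070 to 0.13 for Gstm2 and -0.035 to 0.094 for Gstz1. For the doses averaged, the range was -0.13 to 0.093 for Gsta4, -0.029 to 0.071 for Gstk1, -0.068 to 0.046 for Gstm2, -0.066 to 0.0045 for Gsto1, -0.041 to 0.19 for Gstt1, -0.039 to 0.049 for Gstz1 and -0.034 to 0.14 for Mgst1. For the difference between the effects of the doses, the range was -0.060 to 0.12 for Gstz1. Between the control sets, the range was -0.11 to 1.2e-05 for Gsto1, -0.074 to 0.10 for Gstz1 and -0.12 to 0.045 for Mgst3. Upper-quartile scaling gave 0.0054 for Gstz1 at 10 mg/L against own controls, 0.0019 for Gstm2 with the doses averaged and 0.00083 for Mgst3 between control sets, and limma-voom gave -0.025 for Gsta4 with the doses averaged. With the replicate number as a block, the 500 mg/L changes against all controls were -0.0074 for Gstm2, -0.087 for Gsta4 and 0.18 for Mgst1; the r of same-numbered mice was -0.13 to 0.088 between 10 mg/L and controls 1 to 5 (0 of 5 pairs over 0.1), -0.038 to 0.10 between 500 mg/L and those controls (1 of 5) and -0.12 to 0.23 between doses (2 of 5), short of the 0.1 asked of every pair, and the block called 0 genes at 10 mg/L, 17 at 500 mg/L against all controls and 8 between doses. No paired analysis was possible for the other comparisons because the groups in them do not all share numbers. The cause of these changes was not tested.

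Over all genes, DESeq2 called more: 8 and 84 genes at 10 and 500 mg/L against all controls, 114 between doses, 31 and 7 against own controls, 17 for the doses averaged, 12 for the difference and 185 between control sets, against 1, 2, 2, 0, 0, 2, 0 and 28. Upper-quartile scaling, no filter and limma-voom each called 0 genes at 10 mg/L against all controls and 0 between doses; limma-voom also called 0 at 500 mg/L against all controls and 1 for the doses averaged, and fitting only the groups compared gave 0 between doses. With no filter 11 genes passed between control sets, with a minimum of 1 CPM 48, with only those groups fitted 9 and without a mouse 3 to 50. Without centring, 1 pair of members passed in place of 3, and by Spearman's rho 4 of the 100 marker relations did in place of 7. Leaving out a mouse gave 2 to 3 pairs and 0 to 19 marker relations.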
